A study of Mus musculus with 16 samples.

Results

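Day 6 of a chemical reprogramming course was compared with the induced pluripotent stem cells (iPSC) obtained at its end, by the regions of open chromatin that the authors listed for each. The members were all regions on chromosomes 1 to 19, X and Y that held a peak of the day 6 list, the iPSC list or both. A region was called opened after day 6 when only the iPSC list covered it, closed after day 6 when only the day 6 list covered it, and shared when both did by at least 1 bp. There were 89485 such regions, of 165616 over all 8 lists of the series. Of them 32161 were opened, 40091 closed and 17233 shared. The words opened and closed name this difference between lists and not a change followed in the same cells.

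The study measured open chromatin by ATAC-seq, where Tn5 transposase cuts accessible DNA and tags it for sequencing. Its 16 mouse samples made up 8 stages with 2 samples each: the starting fibroblasts (day 0), days 2, 4, 6, 8, 10 and 12 of reprogramming, and iPSC. The authors deposited 1 peak list per stage, so there is no spread between replicates and no test, and the intervals on shares (exact Clopper-Pearson, 95%) cover counting error only. The fibroblasts of every stage came from embryos of a 129 by OG2 cross. The OG2 allele is a GFP reporter under Pou5f1 regulatory sequence (background knowledge), so reads from the transgene and from the resident Pou5f1 locus cannot be told apart. Day 6 cells had spent 6 days in a reprogramming medium whose composition the labels do not state. The iPSC were grown on feeder cells, per the labels, in a medium with N2, B27, leukemia inhibitory factor (LIF), the GSK3 inhibitor CHIR99021 and the MEK inhibitor PD0325901. Their list can therefore also hold reads from feeder fibroblasts. How many iPSC lines were pooled is not stated.

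Open chromatin marks promoters and enhancers that transcription factors occupy. In fibroblasts many distal open regions are bound by AP-1, TEAD and RUNX factors, whereas pluripotent cells use a network around POU5F1, SOX2, NANOG, ESRRB and KLF factors that binds its own and each other's enhancers. Reprogramming has to close the first set and open the second, and the pluripotency network is commonly reached in steps, with early epithelial genes and late core factors. These sentences are background and not results of these data.

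Promoter windows were read from RefSeq (GRCm38.p6), and each runs from upstream of a transcription start to just after it. The following windows belong to pluripotency genes and to the germ cell gene Dazl and were covered in the iPSC list but not at day 6, so they show the promoters by which the lists differ. The Esrrb window was also covered at days 0, 2, 4, 8 and 10. Capitals mark every match, on either strand, to 1 of 10 motifs: TGANTCA for AP-1, ATGCAAAT (octamer) for POU factors, CATTGT for SOX factors, TCAAGGTCA for ESRRB, GGGNGTGG for KLF factors, ACATTCC for TEAD factors, TGTGGTT for RUNX factors, AACCGGTT for GRHL factors, TGACGTCA for CREB and AGATAAG for GATA factors. Each motif was searched by itself, so matches of different motifs can overlap.
Nanog, chr6:122707239-122707538, plus strand: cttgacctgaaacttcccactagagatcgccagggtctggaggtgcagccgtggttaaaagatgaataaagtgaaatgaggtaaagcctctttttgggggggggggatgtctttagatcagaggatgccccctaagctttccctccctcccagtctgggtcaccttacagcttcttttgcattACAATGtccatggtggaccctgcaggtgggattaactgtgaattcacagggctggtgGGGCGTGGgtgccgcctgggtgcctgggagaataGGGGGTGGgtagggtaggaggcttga
Zfp42, chr8:43306960-43307259, minus strand: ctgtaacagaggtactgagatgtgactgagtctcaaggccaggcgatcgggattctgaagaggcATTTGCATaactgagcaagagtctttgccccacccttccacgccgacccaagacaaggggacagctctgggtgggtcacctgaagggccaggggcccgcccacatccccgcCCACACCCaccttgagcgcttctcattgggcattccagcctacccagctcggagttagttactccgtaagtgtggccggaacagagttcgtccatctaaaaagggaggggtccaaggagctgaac
Pou5f1, chr17:35505782-35506081, plus strand: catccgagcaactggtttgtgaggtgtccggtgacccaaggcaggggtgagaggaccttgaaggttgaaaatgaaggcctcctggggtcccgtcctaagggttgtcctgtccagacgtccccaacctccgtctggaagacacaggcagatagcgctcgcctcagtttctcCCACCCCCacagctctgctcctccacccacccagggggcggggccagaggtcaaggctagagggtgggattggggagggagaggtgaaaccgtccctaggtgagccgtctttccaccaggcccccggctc
Nr5a2, chr1:136953581-136953880, minus strand: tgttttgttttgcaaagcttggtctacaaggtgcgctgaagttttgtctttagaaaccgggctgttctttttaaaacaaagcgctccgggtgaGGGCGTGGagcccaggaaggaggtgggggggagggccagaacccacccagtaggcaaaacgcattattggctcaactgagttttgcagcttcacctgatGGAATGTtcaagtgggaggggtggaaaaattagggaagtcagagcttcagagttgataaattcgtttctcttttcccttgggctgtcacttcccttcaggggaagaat
Esrrb, chr12:86421394-86421693, plus strand: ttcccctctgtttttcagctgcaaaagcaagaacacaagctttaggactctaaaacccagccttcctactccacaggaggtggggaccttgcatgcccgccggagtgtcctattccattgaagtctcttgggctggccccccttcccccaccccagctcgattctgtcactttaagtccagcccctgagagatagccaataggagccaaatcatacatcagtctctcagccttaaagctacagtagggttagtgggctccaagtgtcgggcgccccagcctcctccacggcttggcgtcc
Dazl, chr17:50293571-50293870, minus strand: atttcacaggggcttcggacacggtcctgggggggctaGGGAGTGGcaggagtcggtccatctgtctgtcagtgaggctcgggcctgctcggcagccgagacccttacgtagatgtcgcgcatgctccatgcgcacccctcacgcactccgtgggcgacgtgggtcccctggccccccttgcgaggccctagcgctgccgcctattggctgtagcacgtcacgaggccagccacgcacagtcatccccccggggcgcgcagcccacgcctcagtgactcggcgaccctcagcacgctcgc
The next windows were covered at day 6 but not in iPSC. The Klf4 window was also covered at days 2, 8, 10 and 12. The Twist1 window lies inside a region that both lists shared, and the iPSC peak of that region does not reach the window. Klf4 encodes a pluripotency factor that fibroblasts also express, and Prrx1, Twist1 and Col6a1 belong to mesenchymal cells. Dazl and Col6a1 were chosen for printing after their values were seen.
Klf4, chr4:55532426-55532725, minus strand: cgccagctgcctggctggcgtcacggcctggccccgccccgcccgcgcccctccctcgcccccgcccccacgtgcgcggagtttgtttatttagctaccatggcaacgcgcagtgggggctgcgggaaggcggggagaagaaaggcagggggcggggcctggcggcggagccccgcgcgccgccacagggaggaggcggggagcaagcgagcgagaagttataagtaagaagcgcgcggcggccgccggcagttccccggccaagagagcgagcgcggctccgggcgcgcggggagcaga
Prrx1, chr1:163313601-163313900, minus strand: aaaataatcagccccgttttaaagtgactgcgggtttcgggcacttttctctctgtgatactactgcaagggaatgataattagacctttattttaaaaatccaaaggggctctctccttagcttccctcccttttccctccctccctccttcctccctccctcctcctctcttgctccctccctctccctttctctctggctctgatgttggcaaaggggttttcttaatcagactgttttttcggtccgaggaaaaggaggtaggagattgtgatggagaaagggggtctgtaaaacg
Twist1, chr12:33957421-33957720, plus strand: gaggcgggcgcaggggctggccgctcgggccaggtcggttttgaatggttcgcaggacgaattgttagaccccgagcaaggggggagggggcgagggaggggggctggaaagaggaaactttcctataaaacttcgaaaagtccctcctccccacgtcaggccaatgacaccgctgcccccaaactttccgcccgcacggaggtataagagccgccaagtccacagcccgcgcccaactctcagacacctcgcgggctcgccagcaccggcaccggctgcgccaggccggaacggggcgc
Col6a1, chr10:76725995-76726294, minus strand: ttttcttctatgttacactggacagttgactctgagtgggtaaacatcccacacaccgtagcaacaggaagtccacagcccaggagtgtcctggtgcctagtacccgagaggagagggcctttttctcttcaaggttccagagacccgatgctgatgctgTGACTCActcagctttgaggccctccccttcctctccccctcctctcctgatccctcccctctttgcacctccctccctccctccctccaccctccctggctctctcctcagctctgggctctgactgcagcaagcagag
A capital stretch is a match of letters and not a bound site. The Zfp42 window held an octamer and a KLF match, and the Nanog window a SOX and 2 KLF matches. In the Col6a1 window the single match was to AP-1.

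The day 6 list held 57871 peaks over 33.4 Mb and the iPSC list 49468 peaks over 34.5 Mb. The pileup (number of reads stacked at a peak's summit) and the local background were recovered from the deposited fold and p-value of each peak. The lowest local background of a list, here its background pileup, grows with depth. It was 2.12 reads at day 6 and 1.90 in iPSC, while the other lists ranged from 0.248 at day 12 to 3.08 at day 2. The median summit pileup was 20 reads at day 6 and 21 in iPSC, so the compared lists were of similar depth. They differed in peak width, with medians of 495 bp at day 6 and 609 bp in iPSC, and no iPSC peak was narrower than 277 bp, whereas day 6 peaks began at 199 bp.

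Most regions were not common to day 6 and iPSC. The shared regions made up 30.1% of the 57324 day 6 regions (29.7 to 30.4) and 34.9% of the 49394 iPSC regions (34.5 to 35.3). Opened regions covered 19.9 Mb and closed regions 20.3 Mb. Their median widths were 531 and 431 bp, against 969 bp for shared regions. Without the 9391 day 6 peaks narrower than any iPSC peak, there were 33373 opened and 32071 closed regions, so the order of the 2 counts turned with the peak width that the lists allow. This comparison was chosen after seeing the data.

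Opened and closed regions were the weaker part of each list. The median summit pileup was 18 reads for opened regions in iPSC and 18 for closed regions at day 6, while shared regions had 29 at day 6 and 31 in iPSC. With the iPSC regions cut into 4 equal parts by score, 84.4% (83.8 to 85.0) of the weakest regions were opened and 40.5% (39.7 to 41.4) of the strongest. The day 6 regions ran likewise, from 84.8% (84.2 to 85.4) closed among the weakest to 46.8% (46.0 to 47.6) among the strongest. Thus 5030 of the 12410 strongest iPSC regions had no peak at day 6.

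Shared regions lay at genes' ends and changed regions away from them. Within 1 kb of either end of a protein-coding gene lay 55.5% (54.7 to 56.2) of shared regions. The share was 9.53% (9.21 to 9.86) for opened and 5.53% (5.31 to 5.76) for closed regions. A gene end region is a promoter or the far end of a gene, as the gene table gives no strand. Gene bodies held 45.5% of opened and 45.8% of closed regions, and the space between genes 45.0% and 48.6%. Opened regions outside genes had their nearest gene at a median of 35620.5 bp and closed regions at 45374 bp.

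**Figure D1:**
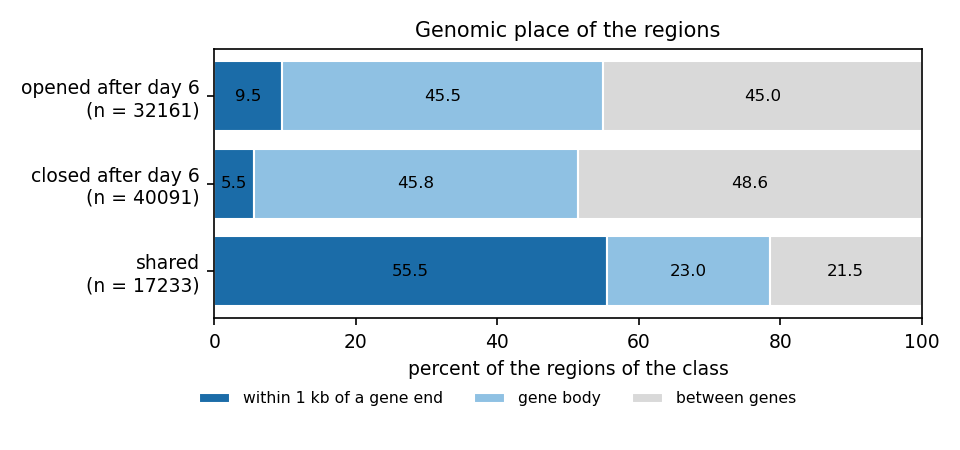
Genomic place of opened, closed and shared regions, as the percent of each class (horizontal axis) within 1 kb of a gene end, in a gene body or between genes. Gene ends take 55.5% of shared regions but 9.5% of opened and 5.5% of closed regions.

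Closed regions were not only those of the starting fibroblasts. The day 0 list covered 43.7% (43.2 to 44.2) of them, 17511 regions. A further 17056 regions, 42.5% (42.1 to 43.0), were absent at day 0 and present at day 2 or 4, and 5524 regions, 13.8% (13.4 to 14.1), appeared first at day 6. The day 2 list, the deepest, covered 81.1% of all closed regions. After leaving out the day 6 peaks narrower than any iPSC peak, the day 0 share was 48.0%, and among closed regions in the better-scored part (50%) of the day 6 list it was 60.4%. Closed regions of the day 0 list had a median width of 532 bp and the others 370 bp.

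Few closed regions were listed after day 6. The day 8 list covered 14.0% of them, day 10 12.6% and day 12 3.13%, and 32492 regions, 81.0% (80.7 to 81.4), were in none of these lists. These lists are shallower, so the same shares were taken over the 20733 closed regions whose day 6 summit would still pass at the background pileup of day 8. Of those, the day 8 list covered 18.6% (18.1 to 19.1), against 88.7% (88.2 to 89.3) of the shared regions held to the same condition. At the day 10 background the values were 14.7% and 87.0%.

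Most opened regions appeared in the iPSC list alone. That was so for 21543 of them, 67.0% (66.5 to 67.5). The lists of days 8, 10 and 12 together covered 7828 opened regions, 24.3% (23.9 to 24.8), and 1480 were in all of these lists. The day 8 list covered 14.4%, day 10 17.2% and day 12 9.71%. Among the 19368 opened regions whose iPSC summit would pass at the day 8 background, day 8 covered 17.6% (17.1 to 18.2), against 86.5% (85.9 to 87.0) of shared regions under the same condition. At day 10 these values were 19.6% and 84.9%, and at day 12, where 4957 opened regions would pass, 17.2% and 84.2%.

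Opened regions at gene ends were listed at days 8 and 10 more often than the others. Day 10 covered 38.0% (36.3 to 39.7) of the 3065 opened regions at gene ends and 15.0% of the others, and day 8 covered 33.5% and 12.4%. Gene end regions were also more often in the day 0 list, 705 of 3065 or 23.0% (21.5 to 24.5), against 7.11% of all opened regions. Opened regions of iPSC alone had 5.25% (4.96 to 5.56) at gene ends, while those listed at day 8, 10 or 12 had 18.8% (17.9 to 19.6).

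Regions absent at day 0 and shared by day 6 and iPSC were few. Of the 17233 shared regions 14507, 84.2% (83.6 to 84.7), were already in the day 0 list and 8860 were in all 8 lists. The other 2726 regions, 15.8% (15.3 to 16.4), were 5.52% (5.32 to 5.72) of the iPSC regions. Only 20.8% (19.3 to 22.3) of them lay at gene ends, against 62.0% (61.2 to 62.8) of the shared regions of day 0. Day 2 covered 78.9% of them, and days 8 and 10 covered 47.6% and 49.8%. Both of these days covered 1034 of the 2726, 37.9% (36.1 to 39.8).

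**Figure D2:**
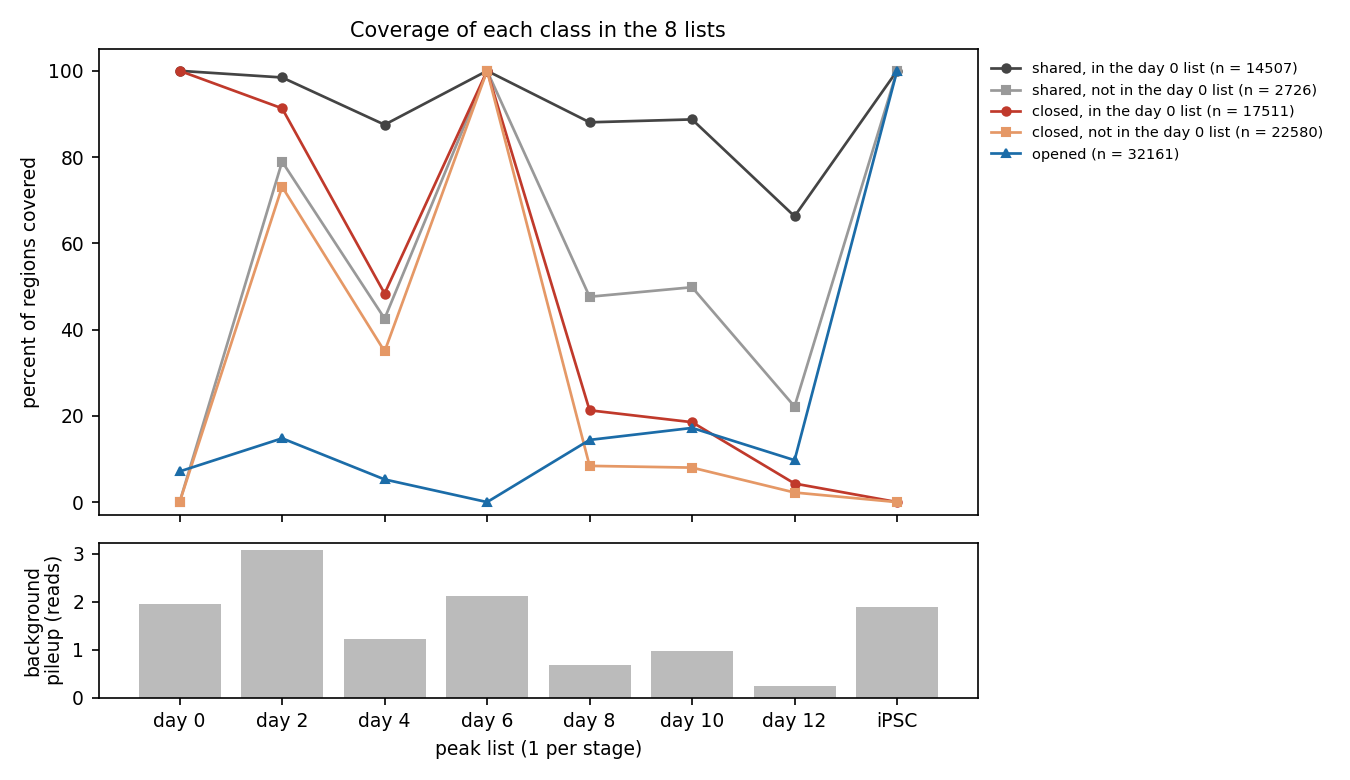
Upper panel: percent of the regions of each class (vertical axis) covered by each of the 8 peak lists (horizontal axis), with closed and shared regions split by the day 0 list. Day 6 and iPSC are at 0 or 100% by definition. Lower panel: background pileup of each list in reads. Opened regions stay at or under 17.2% in the lists of days 0 to 12, and closed regions drop after day 6.

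Regions were assigned to the nearest protein-coding gene within 100 kb. Over all 21887 genes, 25.9% had more opened than closed regions and 28.0% had more closed than opened, with a mean difference of -0.255 regions per gene and a median of 0. In all, 9.22% of genes had an end covered in iPSC and not at day 6, and 5.08% the reverse. The shares count all genes, and 8324 genes had no opened or closed region. Among genes with a changed region, the shares with more opened or more closed regions would be higher. The 21 gene groups below are read against the shares over all genes. Of 8 pluripotent cell markers 4 had a covered end at day 6 and 7 in iPSC, and their mean difference was 3.62 regions per gene. Markers of most other lineages also gained covered ends: neural ones went from 2 to 5 of 6, skeletal muscle ones from 2 to 5 of 6 and trophoblast ones from 2 to 4 of 6. Blood markers went from 2 to 3 of 6, extraembryonic endoderm ones from 2 to 3 of 7 and spermatid ones from 1 to 2 of 7. Endothelial markers went the other way, from 3 to 2 of 6, with a mean difference of -0.167. The neural markers had a mean difference of 3.5, with more opened than closed regions at 6 of 6 genes, so this pattern was not seen at pluripotent cell markers alone. Of 10 fibroblast markers, which feeder cells share, 9 had a covered end at day 6 and 6 in iPSC. In between, 5 had one at day 8, 6 at day 10 and 2 at day 12, whose list is the shallowest.

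**Figure D3:**
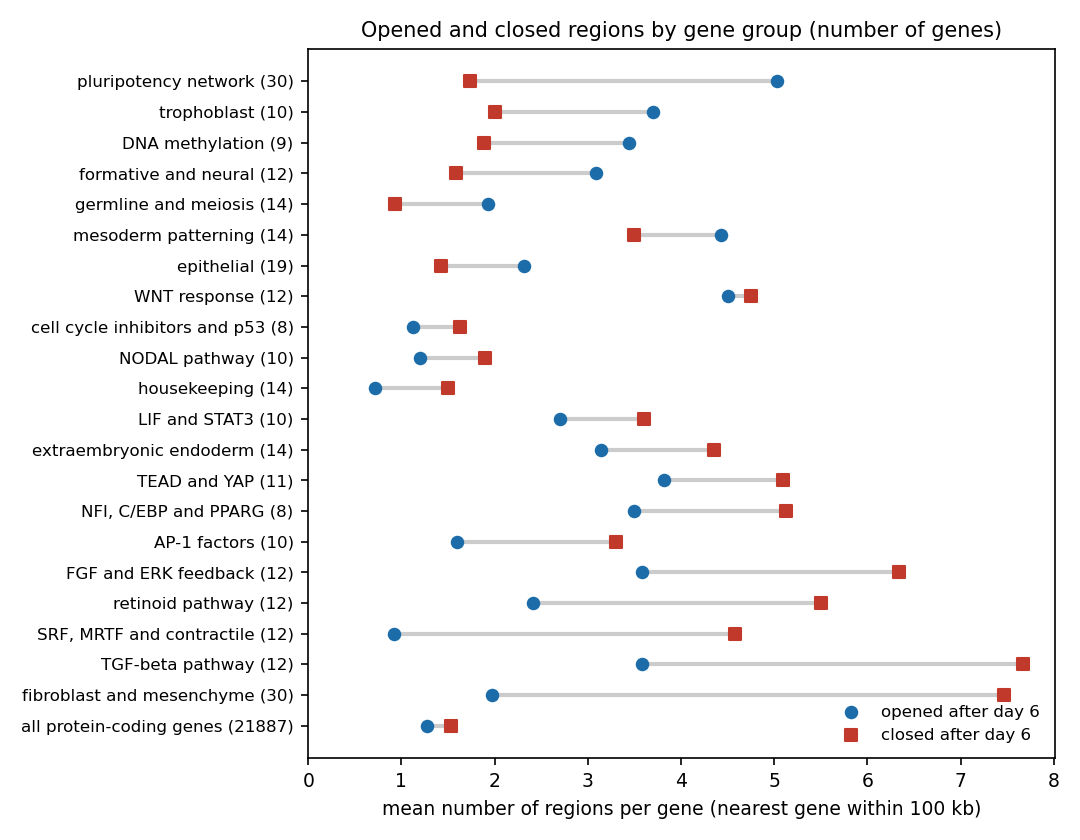
Mean number of opened (circles) and closed (squares) regions per gene (horizontal axis) for 21 gene groups and for all protein-coding genes, with the number of genes in brackets. The pluripotency network has the widest excess of opened regions, 5.03 against 1.73, and the fibroblast group the widest excess of closed regions, 7.47 against 1.97.

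Most regions of the pluripotency network were opened ones. Its 30 genes had 151 opened, 52 closed and 25 shared regions. More opened than closed regions were found at 25 genes, against 25.9% of all genes, which include those with no changed region. Of the opened regions 101 were in iPSC alone and 41 were listed at day 8, 10 or 12. Without the narrow day 6 peaks the counts were 153 opened and 36 closed. An end was covered in iPSC and not at day 6 in 10 genes: Nanog, Zfp42, Prdm14, Dppa2, Dppa4, Dppa5a, Tcl1, Gdf3, Nr0b1 and L1td1. The ends of Nanog, Dppa2, Dppa4, Tcl1 and Gdf3 were covered in iPSC alone. Klf4 was the 1 gene with the reverse.

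Nanog, a homeobox factor of the naive state, had 4 opened, 1 closed and 2 shared regions. Its promoter region chr6:122706968-122707532 had an iPSC pileup of 71 reads and was in no other list. The region 3993 bp upstream, chr6:122702347-122703495, was in all 8 lists, with 30 reads at day 6 and 127 in iPSC. Its fold over local background was higher at day 6 (8.88) than in iPSC (6.19), so reads and fold differ in order. At Nanog the upstream region was thus in every list and the promoter in the iPSC list alone.

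Zfp42, which encodes REX1, a marker of naive cells, had 9 opened regions and 1 closed. Its promoter region chr8:43305866-43307623 had 85 reads in iPSC and was listed at days 8, 10 and 12. Of the other 8 opened regions 7 were in iPSC alone, among them chr8:43320576-43321323 with 58 reads. At Zfp42 the lists of days 8 to 12 thus held the promoter and not the regions around it. These lists are shallower, and the other opened regions had fewer iPSC reads, from 10 to 58. The part of depth in this difference was not tested.

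Pou5f1 encodes OCT4, the central POU factor of the network. Its upstream and promoter region chr17:35503637-35506057 had the highest score of all opened regions, with 866 reads in iPSC over a local background of 163.6 reads and a fold of 5.27, and it was listed from day 8 on. The background pileup of the list is 1.90, so the local background is high as well, and the OG2 transgene and the resident locus cannot be told apart. The promoter window itself was covered at day 12 and in iPSC. In all, Pou5f1 had 4 opened and 2 closed regions. The closed region chr17:35507027-35507359, inside the gene near its end, had 44 reads at day 6 and was also listed at days 8 and 10.

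Sox2, the SOX partner of OCT4, had 9 opened, 5 closed and 1 shared region, and 6 of the opened regions were in iPSC alone. Its gene region chr3:34650415-34651372 was shared, with 54 reads at day 6 and 114 in iPSC, while its fold over local background was 5.36 and 4.12. A distal region 92571 bp away, chr3:34745033-34745780, had 66 iPSC reads and was listed at days 8, 10 and 12. Klf4 showed both directions. The region at its start, chr4:55532536-55533264, had 41 reads at day 6 and no iPSC peak, while a region 62289 bp away, chr4:55463860-55464847, had 112 reads in iPSC and was listed from day 8 on.

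The nuclear receptors and their partners had many opened regions in and around their genes. Nr5a2, a receptor that activates Pou5f1 and Nanog, had 16 opened and 3 closed regions, 11 of the opened ones in iPSC alone. The strongest, chr1:136952870-136954170, had 92 reads and lies over the printed window. Esrrb had 13 opened and 5 closed regions, and 9 of the opened ones were in iPSC alone. Tfcp2l1, a factor of the LIF response, had 8 opened and 1 closed region. Its gene body regions chr1:118647804-118648401 and chr1:118642478-118643184 had 157 and 116 iPSC reads. The first was listed from day 8 on and the second in iPSC alone.

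The other members included regulators of the naive state and of DNA demethylation. Prdm14, a repressor that guards naive and germ cell states, had 8 opened and 0 closed regions. Klf5 had 11 opened and 5 closed, and Tet1, an enzyme that oxidizes methylated cytosine, 7 opened and 1 closed. Sall4 had 5 opened and 2 closed regions, and its end was listed at every stage but day 12. Lin28a, an RNA-binding inhibitor of let-7, had 2 opened regions and 1 closed region. Dnmt3l and Trim28 were the genes with more closed than opened regions, with 2 and 1 closed.

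The fibroblast and mesenchyme group showed the opposite balance. Its 30 genes had 59 opened, 224 closed and 25 shared regions. More closed than opened regions were found at 27 genes, against 28.0% of all genes, which include those with no changed region. Of the closed regions 104 were in the day 0 list and 120 were not. Without the narrow day 6 peaks, 62 were opened and 177 closed. An end was covered at day 6 and not in iPSC in 9 genes, against 5.08% of all genes: Runx2, Postn, Twist2, Dcn, Col6a1, Fap, Col3a1, Fbln2 and S100a4. Tcf21, Zeb2 and Lox had the reverse.

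Among the group's genes Runx1 and Runx2, which encode RUNX factors, held the most closed regions. Runx1 had 23 closed and 4 opened regions, and 12 of the closed ones were not in the day 0 list. The closed region with the most reads, chr16:92620749-92621520 in the gene body, had 60 at day 6 and was listed at days 0, 2 and 4. Runx2, the osteoblast regulator, had 21 closed and 5 opened regions. Prrx1, a homeobox factor of limb mesenchyme, had 13 closed and 2 opened regions. Its promoter region chr1:163313351-163314483 had 20 reads at day 6, was listed from day 0 to day 6 and in no later list. An opened region, chr1:163315648-163316302, lay 502 bp outside the same gene end, with 27 reads and in iPSC alone. Twist2 and Zeb1, which repress epithelial genes, each had 13 closed and 2 opened regions. Twist1 had 6 closed and 2 opened regions.

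Among matrix genes Fbn1, fibrillin, had 17 closed and 2 opened regions. Postn had 12 closed regions, Dcn 10, Col5a1 10 and Col6a1 7, and none of these genes had an opened region. Col1a2 had 8 closed and 2 opened regions, and its start region chr6:4505228-4507606 was in both lists, with 27 reads at day 6 and 15 in iPSC and folds of 4.74 and 4.65. Thy1, a surface marker of fibroblasts, had 6 closed and 0 opened regions. Its end region chr9:44043078-44044235 was shared, with 24 reads at day 6 and 17 in iPSC, while the fold over local background was lower at day 6 (3.67) than in iPSC (6.21). Fn1, fibronectin, went the other way with 8 opened and 2 closed regions, as did Snai2 and Tcf21 with 1 and 2 opened regions. The part of feeder reads in the iPSC peaks of Col1a2 and Thy1 was not tested.

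The contractile program moved with the fibroblast genes. The 12 genes of the SRF and MRTF group, coactivators of actin genes and their targets, had 11 opened and 55 closed regions, and 9 had more closed than opened while 0 had the reverse. Mrtfa had 11 closed and 0 opened regions, Mrtfb 12 and 1, and Tpm1, tropomyosin, 8 and 0. The ends of Acta2, Srf and Tpm2 had a peak at day 6 but none in iPSC.

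AP-1 genes followed the same direction. The 10 genes had 16 opened and 33 closed regions, and 8 had more closed than opened. Fos had 9 closed and 3 opened regions, Fosl2 5 and 2, and Atf3 4 and 2. Most kept a covered end: no more than 1 gene, Batf, lost it. For TEAD and YAP, effectors of the Hippo pathway, the 11 genes had 42 opened and 56 closed regions. Tead1 had 18 closed and 11 opened, and Tead4, a factor of trophectoderm, 7 opened and 1 closed. Without the narrow day 6 peaks the mean difference of that group was 0.

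Transforming growth factor beta genes had 43 opened and 92 closed regions over 12 genes. The co-receptor Tgfbr3 had 24 closed and 2 opened regions, Ltbp1, which stores the ligand in matrix, 28 and 12, and the effector Smad3 and the receptor Tgfbr2 11 and 3 each. The ligand genes differed: Tgfb2 had 9 opened and 5 closed regions, and Tgfb1 and Tgfb3 had none of either kind assigned. The Tgfb1 promoter window was still covered at days 0, 2, 6 and 10 and not in iPSC. Inhba had 5 opened and 0 closed regions.

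In the retinoid pathway 29 regions were opened and 66 closed over 12 genes. The receptor gene Rarb had 26 closed and 6 opened regions and Rxra 12 and 3. Gene ends went the other way, with 4 covered in iPSC and not at day 6 (Rxra, Aldh1a2, Cyp26a1 and Crabp2) and 0 the reverse. Covered ends numbered 6 at day 0, 7 at day 2 and 3 at each of days 4, 6 and 8. They numbered 6 at day 10, 1 at day 12 and 7 in iPSC, so iPSC was close to day 0. Aldh1a2 makes retinoic acid and Cyp26a1 breaks it down.

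Fibroblast growth factor and ERK feedback genes had 43 opened and 76 closed regions over 12 genes, a mean difference of -2.75 per gene. With the better-scored 50% of both lists these were 21 and 25, a mean of -0.333, and with the 20 kb assignment limit the mean was -1.17. The feedback genes Spred1 and Dusp6 had 13 and 12 closed against 2 and 4 opened regions, and the receptor Fgfr2 15 against 6. Fgf4, the ligand made by pluripotent cells, had 4 opened and 0 closed regions. The iPSC medium holds a MEK inhibitor, and its part was not tested. In the LIF and STAT3 group 27 regions were opened and 36 closed over 10 genes. Jak1 had 7 closed and 2 opened regions, Pim1 6 and 2, and Stat3 4 and 0, while Tfcp2l1 was the gene with the largest excess of opened regions.

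WNT response genes had no steady direction. The 12 genes had 54 opened and 57 closed regions, a mean difference of -0.25, which turned to 0.333 with an assignment limit of 20 kb and to 0.5 without the narrow day 6 peaks. Tcf7l1, a repressor of pluripotency enhancers, had 16 opened and 7 closed regions. Its partners in the family differed: Lef1 had 3 opened and 8 closed and Tcf7l2 10 and 12. T, brachyury, and Cdx1 had an end covered in iPSC alone. NODAL pathway genes had 12 opened and 19 closed regions over 10 genes, and Smad2 had 8 closed and 2 opened.

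Epithelial genes opened at their ends. The 19 genes had 44 opened and 27 closed regions, and 8 had an end covered in iPSC and not at day 6, with 0 the reverse: Cdh1, Epcam, Cldn3, Cldn7, Krt18, Ocln, Grhl2 and St14. The number of genes with a covered end was 5 on day 0, 12 on day 2, 5 on day 4 and 7 on day 6. It was 16 on day 8, 17 on day 10, 8 on day 12 and 15 in iPSC. Days 8 and 10 exceeded day 6 although their lists were shallower. Cdh1, E-cadherin, had its end region chr8:106603235-106604318 with 54 iPSC reads, listed at days 2, 8, 10 and 12. Epcam had 5 opened and 0 closed regions, with its end region listed from day 8 on, and Dsp, desmoplakin, had 5 opened and 1 closed region. The factor Grhl2 had 7 opened and 4 closed regions.

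Promoters of germ cell genes were mostly covered in iPSC and in no earlier list. Of 13 genes with a RefSeq promoter window, 10 had one covered in iPSC and not at day 6, against 8.51% of all 17492 genes with a window, and 0 had the reverse, against 4.07%. For 9 of the 10 the window was covered in iPSC alone: Dazl, Ddx4, Hormad1, Mael, Rpl10l, Slc25a31, Stra8, Sycp1 and Sycp3. The tenth was Zfp42, also a member of the pluripotency list. Over all 1488 genes with an opened promoter, 314 or 21.1% were covered in iPSC alone. Dazl and Ddx4 encode RNA-binding proteins of germ cells, Stra8 starts meiosis, and Sycp1, Sycp3 and Hormad1 encode proteins of meiotic chromosomes. Stra8 had 4 opened and 0 closed regions and Sycp1 3 and 0. The number of these 14 genes with a covered end ran from 2 to 4 over days 0 to 12 and was 11 in iPSC.

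In the pluripotency network, 10 of 19 genes with a window had it opened and 2 closed, Klf4 and Dnmt3l. Nanog, Nr0b1, Tcl1 and Tdgf1 were covered in iPSC alone. In the fibroblast group 10 of 17 were closed (Col3a1, Col6a1, Fbln2, Pdgfra, Postn, Prrx1, Runx2, S100a4, Twist1 and Twist2) and 1, Zeb2, was opened. A window can be covered in 1 list only while the wider region is shared, as at Twist1, where the region chr12:33956767-33957769 had 33 reads at day 6 and 12 in iPSC. Epithelial windows were opened for 5 of 13 genes and closed for 0.

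**Figure D4:**
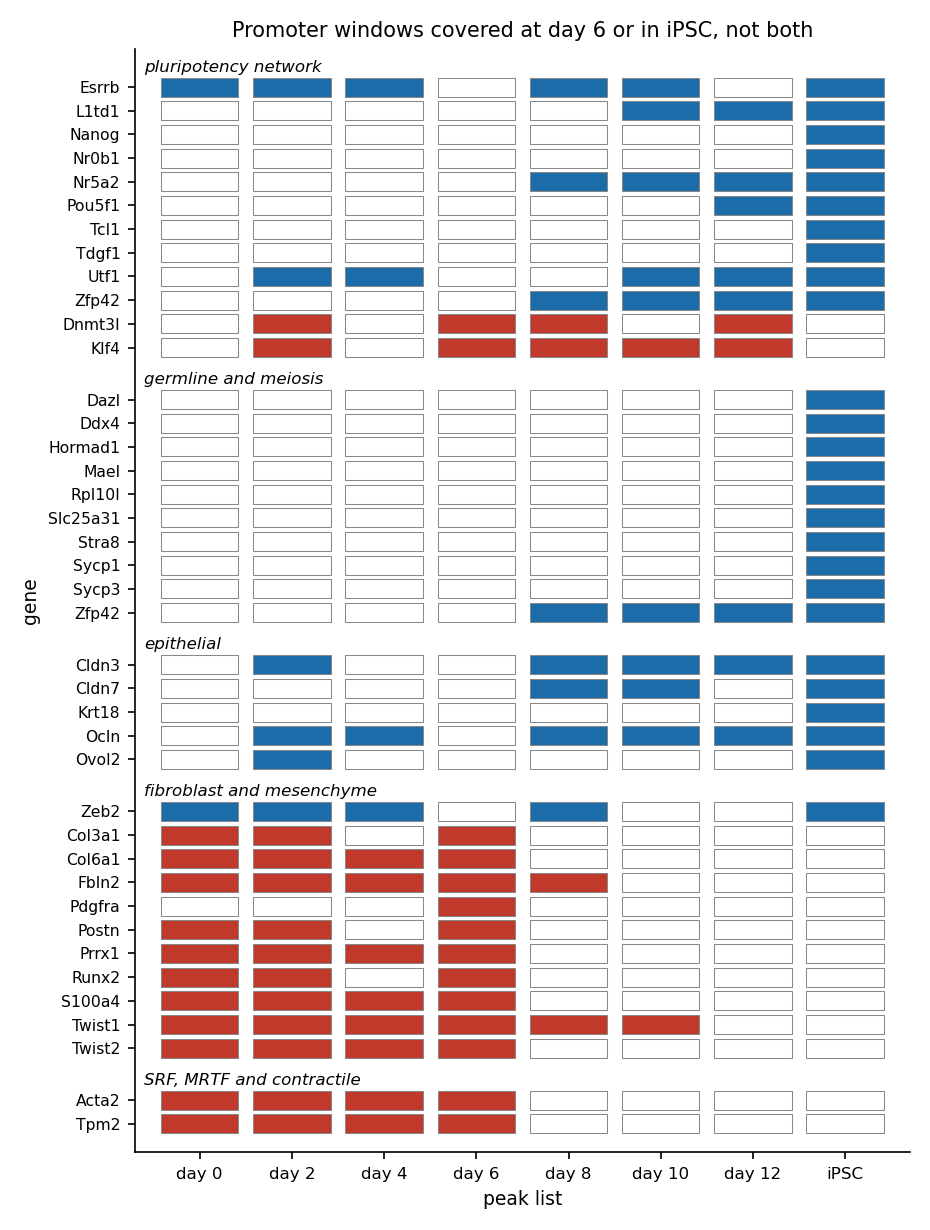
Promoter windows of 5 gene groups that were covered at day 6 or in iPSC but not in both, 1 row per gene and 1 column per peak list. Filled cells are covered (blue, opened; red, closed); a gene with several windows is filled where any is covered. Germ cell promoters other than Zfp42 are filled in iPSC alone.

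The trophoblast, neural and mesoderm groups had more opened than closed regions, at 6, 7 and 8 genes against 1, 3 and 5 genes with more closed ones. Trophoblast genes had 37 opened and 20 closed regions over 10 genes. Tfap2c, which also acts in naive cells, had 10 opened and 5 closed, and Elf5 6 and 2. Of 8 trophoblast genes with a window, 5 were opened (Ascl2, Elf5, Eomes, Esx1 and Tfap2a). Formative and neural genes had 37 opened and 19 closed regions over 12 genes. Sox1 had 10 opened and 2 closed regions, Zic5 6 and 0, Pax6 5 and 1, and Otx2 5 and 2. Mesoderm patterning genes had 62 opened and 49 closed regions over 14 genes, with Meis2 at 12 and 8 and Foxc1 at 5 and 0.

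Extraembryonic endoderm genes, which some chemical routes activate on the way (background), had 44 opened and 61 closed regions over 14 genes. Cubn had 15 closed and 3 opened regions and Col4a1 11 and 3. Its factors differed among themselves: Sox17 had 5 opened and 0 closed regions, Gata6 6 and 3, Foxa2 8 and 1, and Gata4 3 and 3. Sox7 had 0 opened and 2 closed regions, the receptor gene Pdgfra 2 and 9, and Hnf4a 0 and 0 with 1 shared region. The Sox17 end region chr1:4491838-4493818 had 67 iPSC reads and was listed at days 2, 4, 8, 10 and 12 but not at day 6. The Gata6 promoter region was in all 8 lists, with 36 reads at day 6 and 40 in iPSC.

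Chromatin and control genes gave smaller numbers. In the DNA methylation group 31 regions were opened and 17 closed over 9 genes, with Tet2 at 13 opened and 4 closed. In that group 3 genes had more opened and 4 more closed regions, and the median difference was 0. With the better-scored 50% of both lists it had 12 opened and 11 closed regions, and the mean difference went from 1.56 to 0.111 per gene. NFI, C/EBP and PPARG genes had 28 opened and 41 closed regions over 8 genes. Without the narrow day 6 peaks the mean difference of that group turned from -1.63 to 0.125 regions per gene. Nfia had 4 opened and 12 closed, Nfib 16 and 8, and Cebpb and Pparg 8 and 7 closed against 1 and 2 opened. Cell cycle inhibitors and p53 had 9 opened and 13 closed regions over 8 genes. Housekeeping genes had 10 opened and 21 closed regions over 14 genes, of which Ywhaz held 5 and 10. Without the narrow day 6 peaks, the mean difference per gene went from -0.786 to -0.214 for housekeeping genes and from -1.21 to -0.214 for extraembryonic endoderm genes. It went from -0.9 to -0.1 for the LIF group, from -0.7 to -0.1 for the NODAL group and from -0.5 to -0.125 for cell cycle inhibitors. These groups thus kept little of their excess of closed regions. Over all regions that excess was lost as well, with 33373 opened and 32071 closed at this setting. The shift was therefore not particular to these groups, and the mean over all genes at this setting was not computed. The AP-1, retinoid and FGF groups then had 25, 54 and 62 closed against 16, 31 and 44 opened regions, and mesoderm genes 36 closed against 64 opened.

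Over all genes, 10 are named each way by their excess of opened or closed regions. Ptprn2 had 24 opened and 3 closed regions over 792 kb, Arid1b 26 and 9 over 353 kb, and Clybl 18 and 2 over 231 kb. Dpp6, Cntn5 and Morc1 had 23, 17 and 18 opened regions, each of them in iPSC alone. Etl4, Magi1, Klf12 and Pard3 completed the first 10, with 28, 30, 19 and 27 opened regions. On the other side Rbms3 had 57 closed and 15 opened regions over 1057 kb, 39 of the closed ones absent at day 0. Thsd4 had 41 closed and 0 opened regions, 30 of them absent at day 0. Dlg2, Pcdh15, Cacna2d3, Frmd4a, Dnm3, Babam2, Stard13 and Col24a1 followed with 40, 35, 31, 37, 34, 28, 28 and 26 closed regions. The relation of gene length to these counts was not tested.

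The highest-scored opened regions after Pou5f1 lay in gene bodies or between genes. They were chr6:146855268-146855764 in Smco2 with 182 reads, chr13:95215728-95216222 in Pde8b with 217, chr10:120216815-120217314 in Tmbim4 with 177 and chr9:3257676-3259375, 75855 bp from Alkbh8, with 131. The Tmbim4 region was in iPSC alone and the Pde8b region was listed from day 8 on. The highest-scored closed regions were narrow. The first, chr6:103649068-103649288 in Chl1, had 905 reads at day 6 within 221 bp, and the next, chr13:120321438-120321638 near Tcstv3, 266 reads within 201 bp. The region chr17:56005867-56006115 in Stap2 had 273 reads, and 2 regions of chromosome 1, chr1:112457538-112457744 and chr1:195371729-195371970, had 147 and 124. None of these 5 was listed at day 0 or 2, and each was listed at days 6, 8, 10 and 12 and not in iPSC. The regions in Chl1 and Stap2 and chr1:195371729-195371970 were also listed at day 4. The 5 highest-scored shared regions were in all 8 lists, led by chr2:98666571-98667312 with 11036 reads at day 6 and 8307 in iPSC. The local background of this region was also high, 618 reads at day 6 and 576 in iPSC, and why was not tested.

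Letters in the promoter windows differed between the classes. AP-1 matches were in 12.1% (10.1 to 14.4) of the 955 closed windows, 4.95% (4.02 to 6.03) of the 1898 opened windows and 6.99% of all 21263 windows. Windows covered in both lists had 3.98%, and windows covered in neither had 9.92% (9.31 to 10.5). The interval of the latter overlaps that of closed windows. RUNX matches were in 6.07% (4.64 to 7.78) of closed, 2.90% (2.19 to 3.76) of opened and 4.71% of all windows. They were in 2.96% of windows covered in both lists and 6.72% of those in neither, so closed windows did not exceed the latter. KLF matches were in 24.5% (22.6 to 26.5) of opened, 20.4% (17.9 to 23.1) of closed and 19.4% of all. Windows covered in both lists had 24.2%, close to opened windows, and windows covered in neither had 13.5%. Octamer matches had shares of 1.69%, 1.36% and 1.66% in opened, closed and all windows, and SOX matches 6.95%, 7.75% and 11.0%. The shares for TEAD were 3.37%, 3.98% and 3.38% and for CREB 1.74%, 3.14% and 2.23%. GATA, ESRRB and GRHL matches were in 2.64%, 0.334% and 0.179% of all windows. Base composition also differed: the median GC content was 61.7% in opened, 56.0% in closed and 56.3% in all windows, and its part in these shares was not tested. Distal regions, which make up most of the changed regions, were not searched.

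Opened and closed regions were also counted in bins of 100 kb. Of 20338 bins with any region, 10703 held both an opened and a closed one. The share to be expected from the numbers of regions alone was not computed. The bin with the most closed regions, chr11:82000001-82100000 with the chemokine genes Ccl2, Ccl7 and Ccl11, held 14 closed and 0 opened regions, of which day 0 listed 7, day 2 11, day 4 7, days 8 and 10 2 each and day 12 0. The bin of Dusp6 held 13 closed and 6 opened regions, and none of the closed ones was listed at days 8, 10 or 12. On the opened side the bins of Zmynd8 and Macf1 held 11 opened regions each, with 5 and 3 closed ones. That of Tcf7l1 held 10 opened and 6 closed regions. Opened regions made up between 40.8% (chromosome 3) and 48.4% (chromosome 18) of the changed regions of an autosome and 52.5% (49.8 to 55.2) of those of chromosome X.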

How the data were processed

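ATAC-seq of 16 mouse samples (2 per stage) gave 1 deposited narrowPeak list per stage. Per the submitters' processing notes, the tools were MACS2 2.1.2, Bowtie2 2.2.5, fastp 0.20.1, deepTools 3.4.3 and SAMtools, and the build was mm10. Settings, shifts for the Tn5 offset and the way samples were combined are not stated there. The deposited lists hold, per peak, the authors' score, a fold enrichment (a ratio) at the summit, its −log10 p-value and the summit's offset. Scores were used only within a list, to rank peaks. Folds and the pileups recovered from them are also set side by side between the day 6 and iPSC lists, without scaling.

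The summit pileup and local background were solved from the deposited fold, taken as (pileup + 1) over (background + 1), and the Poisson −log10 p-value. This step was tested on simulated data. Regions were merged peaks of the day 6 and iPSC lists on chromosomes 1 to 19, X and Y, and coverage in any list needed 1 bp. To ask what would pass at another list's background, pileup and local background were scaled by the ratio of background pileups, and a peak passed where its −log10 p-value reached the lowest deposited in that list. Genes came from RefSeq (GRCm38.p6, 21887 protein-coding genes), with gene ends within 1 kb and assignment to the nearest gene within 100 kb. Promoter windows existed for 17492 genes.

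The members and gene lists were chosen with earlier results of these data known. Named genes were 20 core genes, up to 4 members per group with the largest difference of opened and closed regions, 10 genes each way over all genes, 5 regions per class by score, and group genes with an end covered in 1 of the 2 lists. Other members named with values were chosen after their values were seen. Alternatives were the better-scored 50% of the lists, equal list length, 50% overlap, a scaled day 6 list, a 2.5 kb gene end window and a 20 kb assignment limit. Added later were the better-scored 50% against the whole other list, day 6 without narrow peaks, and RefSeq starts. Python 3.11.15, numpy 2.4.6, pandas 2.3.3, scipy 1.17.1 and matplotlib 3.10.9 were used.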

Additional observations from a re-analysis of the deposited data

Results flagged for a closer look

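Peaks on sequences other than chromosomes 1 to 19, X and Y were left out of the comparison: 53 in the day 6 list and 52 in the iPSC list. They were noted because a signal appears there in data the report does not use.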

How the results depend on the processing

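No paired analysis was possible because each stage has 1 peak list, whose columns carry no replicate number. Leaving out a replicate was not run for the same reason. Depth limits the lists of days 8, 10 and 12 most.

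With the better-scored 50% of both lists there were 15374 opened, 19513 closed and 9354 shared regions, of which 15.2%, 8.83% and 70.8% lay at gene ends. Day 0 then covered 63.7% of the closed and days 8 to 12 covered 40.0% of the opened regions. With lists of equal length the gene end shares were 10.3%, 5.19% and 57.3%, and the day 0 and days 8 to 12 shares 48.4% and 25.7%. The counts were then 33331 opened and 33057 closed, so their order turned. With 50% overlap these 5 shares were 10.0%, 6.22%, 57.4%, 44.3% and 25.5%. A day 6 list scaled to the iPSC background gave 44.2% of closed regions at day 0. A 2.5 kb window put 14.8%, 9.92% and 60.4% at gene ends.

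Settings chosen after seeing the data followed. Regions whose peak is in the better-scored 50% of its own list numbered 12692 opened and 16952 closed, with 9.16% and 4.70% at gene ends, 60.4% at day 0 and 31.0% at days 8 to 12. Without narrow day 6 peaks the gene end shares were 10.3% and 57.3% for opened and shared regions, and the other shares 48.0% and 25.9%. RefSeq starts gave 8.55% and 52.1%. Of the opened regions that would pass at the day 8 background, a planned setting, days 8 to 12 covered 29.2%.

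Of 84 group means under 4 alternatives, 55 stayed within 50% of the reported mean, 25 moved further with the same sign or to 0, and 4 turned. The WNT mean turned to 0.333 at 20 kb, to 0.167 with the better-scored 50% and to 0.5 without narrow day 6 peaks. The mean of NFI, C/EBP and PPARG turned to 0.125 without narrow day 6 peaks. The causes were not tested.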

Other observations

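MicroRNA loci, chosen after their values were seen, were searched for opened and closed regions within 5 kb of the hairpin. Of 1005 hairpins in the RefSeq table (GRCm38.p6), 183 or 18.2% had an opened and no closed region, and 152 or 15.1% the reverse. The miR-290 cluster, the main microRNA cluster of mouse pluripotent cells, had the opened regions chr7:3213207-3213901 with 71 iPSC reads, in iPSC alone, and chr7:3220996-3222740 with 80 reads, also listed at days 2 and 8. The miR-302 cluster lay in the opened region chr3:127544447-127545701, with 41 iPSC reads and listed at days 8, 10 and 12. The mature arms below are printed because both clusters share the seed AAGUGCU, in capitals.
miR-291a-3p: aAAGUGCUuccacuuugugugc
miR-294-3p: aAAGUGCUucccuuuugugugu
miR-295-3p: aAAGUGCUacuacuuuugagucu
miR-302b-3p: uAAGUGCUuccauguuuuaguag
miR-302d-3p: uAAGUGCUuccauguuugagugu
Mir205, of epithelial cells, had 3 opened and 0 closed regions, and 2 of the 3 were listed at days 8, 10 and 12. MicroRNAs of mesenchymal cells had closed regions. Mir199a-1 had 3 closed and 0 opened regions, the strongest chr9:21496597-21497348 with 66 reads at day 6, listed from day 0 to day 6 and in no later list. Mir199a-2 had 3 closed and 1 opened, Mir125b-1 4 and 0, and Mir196a-1 3 and 0. Mir21a, common in fibroblasts, had 2 closed regions, and its shared region chr11:86586544-86587610 had 69 reads at day 6 and 15 in iPSC. The arms of the closed loci printed here have different seeds.
miR-199a-3p: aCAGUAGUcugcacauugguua
miR-125b-5p: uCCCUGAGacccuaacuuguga
miR-21a-5p: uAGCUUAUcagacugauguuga

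Of the 20 closed regions with the highest score, 8 were under 300 bp wide, and 8 were listed at days 8, 10 and 12 but at neither day 0 nor day 2. Among the 100 highest these numbers were 9 and 10, while 82 of the 100 were in the day 0 list. The day 4 list held 17 of the 20 and 96 of the 100. Among opened regions 0 of the 20 and 0 of the 100 highest were under 300 bp wide, and 5 of the 20 and 13 of the 100 were listed at days 8, 10 and 12 but at neither day 0 nor day 2. Of all closed regions 10083 or 25.2% were under 300 bp wide, against 1926 or 5.99% of opened regions.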
